A study of Homo sapiens with 2 samples.

Results

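Imprinted gene domains are chromosome segments in which one or more genes are expressed from the maternal or the paternal copy alone. The histone mark H3K27me3 (histone H3 trimethylated at lysine 27) was examined over 8 such domains in HCT116, an established human colorectal carcinoma cell line grown in McCoy's 5A medium with fetal bovine serum. The domains were fixed by position on hg19, not by their H3K27me3 values, as 8 windows with every bin of 1000 bases inside them. They comprised 1900 bins, of which 1883 held at least 1 read in either library, out of 2600564 autosomal bins with a read. The 8 windows are named here after their best known genes: IGF2/H19 and KCNQ1/CDKN1C on chromosome 11, SNRPN/UBE3A on chromosome 15, DLK1/MEG3 on chromosome 14, GNAS on chromosome 20, PEG10/SGCE and MEST on chromosome 7 and PEG3 on chromosome 19. All libraries came from 1 group of formaldehyde-fixed cells, for which the labels name no treatment, with 2 samples that the labels call biological replicates, and no input library was used here. Nothing in the labels ties the samples to separate cultures, so the spread between them may be technical. Reads were not assigned to parental copies, so each value sums both copies, and whether a domain is still imprinted in these cells could not be checked.

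In imprinted domains the choice of parental copy is marked by DNA methylation at a control region, which is laid down in the egg or the sperm and kept in the embryo. H3K27me3 is written by Polycomb repressive complex 2, is found over silent developmental genes rich in CpG, and in several imprinted domains lies on the silent copy of genes held off by a long noncoding RNA, KCNQ1OT1 being the best known. DNA methylation and H3K27me3 tend to exclude each other at CpG-rich sequence, and active promoters usually carry little of either.

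The windows lie around promoters of very different CpG content, and the sequences immediately before several of their starts are printed because the H3K27me3 signal described further on was interrupted or absent at these starts. Each is 250 bases, written 5′ to 3′ on the strand of its gene with every CG dinucleotide in capitals. The CG motif reads the same on both strands. The sequences are from RefSeq on GRCh38.p14, a different build from the hg19 counts, and no coordinate was converted. Of the promoters picked by rule, as the highest or the lowest by level, UBE3A alone had an entry; the other 5 were chosen after their values were seen. NESP55, XLas and exon A/B are the starts of the GNAS locus, at chr20:58839498-58839747, chr20:58852466-58852715 and chr20:58888163-58888412, all on the plus strand. SNURF lies at chr15:24954737-24954986 on the plus strand, UBE3A at chr15:25439057-25439306 on the minus strand and MEG3 at chr14:100825858-100826107 on the plus strand.
NESP55: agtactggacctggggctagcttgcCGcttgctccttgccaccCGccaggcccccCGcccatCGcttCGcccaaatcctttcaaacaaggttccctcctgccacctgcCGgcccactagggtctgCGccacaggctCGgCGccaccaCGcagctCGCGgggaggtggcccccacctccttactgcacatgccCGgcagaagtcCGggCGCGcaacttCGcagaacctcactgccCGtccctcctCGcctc
XLas: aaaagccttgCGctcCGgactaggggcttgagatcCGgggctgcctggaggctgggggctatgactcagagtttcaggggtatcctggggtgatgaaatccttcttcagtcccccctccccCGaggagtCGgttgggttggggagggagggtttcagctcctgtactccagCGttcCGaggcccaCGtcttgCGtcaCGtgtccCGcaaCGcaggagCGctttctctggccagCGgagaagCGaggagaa
exon A/B: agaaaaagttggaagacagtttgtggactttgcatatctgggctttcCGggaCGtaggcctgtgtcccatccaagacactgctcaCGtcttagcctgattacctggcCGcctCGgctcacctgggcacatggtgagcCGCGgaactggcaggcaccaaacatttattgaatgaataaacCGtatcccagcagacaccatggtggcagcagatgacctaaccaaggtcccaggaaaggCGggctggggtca
SNURF: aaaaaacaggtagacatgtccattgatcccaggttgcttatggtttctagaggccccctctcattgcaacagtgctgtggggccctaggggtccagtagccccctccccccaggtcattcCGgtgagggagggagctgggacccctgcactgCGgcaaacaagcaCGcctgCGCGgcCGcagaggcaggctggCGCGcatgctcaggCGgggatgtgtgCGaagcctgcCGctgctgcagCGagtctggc
UBE3A: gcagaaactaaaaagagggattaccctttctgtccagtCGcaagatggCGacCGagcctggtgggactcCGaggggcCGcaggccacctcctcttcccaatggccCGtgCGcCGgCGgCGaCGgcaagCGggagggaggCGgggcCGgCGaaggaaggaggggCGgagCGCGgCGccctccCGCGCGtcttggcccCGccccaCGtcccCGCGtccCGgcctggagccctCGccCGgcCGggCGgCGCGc
MEG3: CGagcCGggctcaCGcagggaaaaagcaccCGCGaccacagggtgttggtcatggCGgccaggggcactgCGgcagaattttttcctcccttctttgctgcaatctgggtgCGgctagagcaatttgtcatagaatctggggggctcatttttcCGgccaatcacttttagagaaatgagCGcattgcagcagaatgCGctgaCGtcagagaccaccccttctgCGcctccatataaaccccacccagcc
These held 19, 15, 9, 12, 33 and 13 CG dinucleotides in the order printed. Over 35116 promoter windows of the same length the median was 11, and 93.94% held at least 1 CG. The UBE3A sequence stood at the 91.85th percentile of that count, while the exon A/B sequence, at the 45.9th, held fewer than the median window. The table had entries for 9 of the 17 gene names looked for, and IGF2, KCNQ1, KCNQ1OT1, CDKN1C, DLK1, SGCE, PEG10 and PEG3 are therefore named only.

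The level of a bin is its read count over the library's mean count of autosomal bins with a read, which was 22.0 and 37.5 reads in the first and second replicate (of 53187504 and 97031399 reads in all). A bin was called enriched when its level was at least 2-fold, or 44.0 and 75.1 reads, with a Benjamini-Hochberg adjusted one-sided Poisson p under 0.05, in both libraries. With the extra variation between libraries added, counting error came to 23.5% and 18.0% for a single bin at 2-fold, and to 66.4% and 50.8% for a bin of 5.50 and 9.38 reads, so low single bins carry little precision. Intervals and limits cover counting error only. Of bins with 1 to 10 reads, 67.8% and 67.7% held an even count, so reads may not be independent of each other. The Poisson calls, intervals and limits take them as independent and may be too narrow. With 2 libraries an exact permutation test between windows cannot reach p under 0.05, so none was run; differences are set against the spread of the 2 libraries, and SD has n = 2 throughout.

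The enriched share of the imprinted bins stood below that of the autosomes, a difference given as a description without a test. In both libraries 101 of the 1883 listed bins were enriched, or 5.36%, where 12.7% of all autosomal bins were. Bins under 0.5-fold in both libraries numbered 954, or 50.7% of those listed, against 54.2% of autosomal bins, a share near the background. The median of the imprinted bins was 0.364 and 0.373 in the 2 libraries, the same as the autosomal median of 0.364 and 0.373, while the mean over the windows was 0.692 and 0.731 against 0.907 and 0.970 over autosomal bins. The pooled median was thus like the autosomal one, and the means and enriched shares were lower. The pool mixes unlike windows: the median bin stood at 1.00 and 1.04 in IGF2/H19 and at 0.182 and 0.160 in SNRPN/UBE3A. These imprinted medians and means cover all 1900 bins, and the autosomal ones only bins with a read in either library. Of the 101 enriched bins, 44 lay in IGF2/H19, 23 in DLK1/MEG3, 18 in GNAS and 16 in KCNQ1/CDKN1C, and none lay in SNRPN/UBE3A, PEG10/SGCE, PEG3 or MEST. Without the IGF2/H19 window the enriched share of all window bins was 3.31% in place of 5.32%.

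Mean levels separated the windows into marked and unmarked ones. IGF2/H19 stood highest, at 1.8 in replicate 1 and 1.94 in replicate 2 (1.87 ± 0.101), over chr11:2010001-2190000. GNAS came next, at 1.23 and 1.31 (1.27 ± 0.0558), over chr20:57400001-57490000. Both exceeded the library mean in both libraries, and the other 6 windows lay below it in both. Scaled to the mean of its own chromosome in place of all autosomes, GNAS stood at 0.930 and so below it.

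DLK1/MEG3, chr14:101180001-101540000, stood at 0.876 and 0.967 (0.922 ± 0.0646). KCNQ1/CDKN1C, chr11:2460001-2920000, stood at 0.806 and 0.827 (0.817 ± 0.0143). MEST, chr7:130120001-130150000, stood at 0.482 and 0.415 (0.448 ± 0.0474). The windows named so far did not overlap in their libraries. DLK1/MEG3 and KCNQ1/CDKN1C lay closest to each other, with the libraries of DLK1/MEG3 almost as far apart as the means of the 2 windows.

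At the foot of the order, SNRPN/UBE3A, chr15:25060001-25690000, stood at 0.231 and 0.232 (0.232 ± 0.000717). PEG3, chr19:57310001-57360000, stood at 0.217 and 0.247 (0.232 ± 0.0208), and PEG10/SGCE, chr7:94210001-94310000, at 0.229 and 0.221 (0.225 ± 0.00543). These 3 did not differ beyond the spread of the PEG3 libraries. Bins under 0.5-fold in both libraries made up 86.7%, 84.0% and 86.0% of them, against 10.0% in IGF2/H19.

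**Figure D1:**
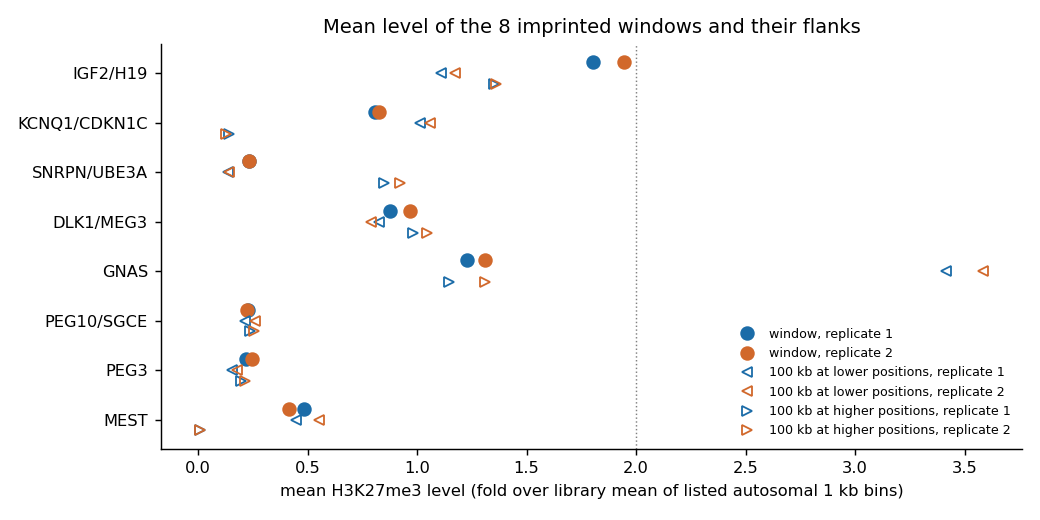
Mean H3K27me3 level of each window (filled circles) and of the 100 kb on its lower-coordinate and higher-coordinate side (open triangles), as fold over the library mean, for replicate 1 (blue) and replicate 2 (orange); the dotted line marks 2-fold. IGF2/H19 and, by a small margin, PEG3 lie above both of their flanks in both libraries, GNAS lies below its lower-coordinate flank at 3.41 and 3.59, and the higher-coordinate flank of MEST is not interpretable because 95 of its 100 bins held no read in either library.

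The plot of window and flank means shows how the domains sit in their surroundings. IGF2/H19 exceeded both flanks, which stood at 1.11 and 1.17 on the lower-coordinate side and at 1.35 and 1.36 on the other. GNAS adjoined a strongly marked segment at lower coordinates, at 3.41 and 3.59 with 65 of 100 bins enriched, and so was itself less marked than the sequence beside it. KCNQ1/CDKN1C lay on a boundary: the 100 kb before it stood at 1.02 and 1.06 and the 100 kb after CDKN1C at 0.143 and 0.128. SNRPN/UBE3A had the opposite asymmetry, from 0.136 and 0.143 before the window to 0.847 and 0.924 beyond UBE3A. PEG10/SGCE and PEG3 were embedded in sequence that was also low, with flanks of 0.216 to 0.259 and of 0.157 to 0.215. The chromosome means did not follow the same order: chromosome 15, which holds the unmarked SNRPN/UBE3A window, stood at 1.01 and 1.08, and chromosome 7, which holds PEG10/SGCE and MEST, at 0.779 and 0.831.

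The IGF2/H19 domain pairs IGF2, a fetal growth factor expressed from the paternal copy, with H19, a maternally expressed noncoding RNA, under a control region bound by CTCF on the maternal copy. Gene positions on hg19 are given here from general knowledge to the nearest kb. Most of the window's signal lay in neither gene. A block of 32 enriched bins without a gap, chr11:2062001-2094000, stood at 5.35 in replicate 1 (3769 reads) and 5.77 in replicate 2 (6935 reads), or 5.56 ± 0.297, with single bins between 2.67 and 8.13. It was the longest enriched run of all 8 windows, and lay in the stretch of 125 kb between the H19 control region and IGF2, where 37 bins were enriched and the mean was 2.15 and 2.35. Its first edge was sharp: the bin from 2061001 stood at 1.32 and 2.32, the bin from 2062001 at 2.77 and 2.66, and the bin from 2063001 at 7.36 and 7.27. The highest bin of any window was the next one, from 2064001, at 9.09 (200 reads) and 7.17 (269 reads), a mean that 0.212% of autosomal bins reached. From there the level declined unevenly along the block, to 2.59 and 2.74 in its last bin from 2093001 and to 1.14 and 1.12 in the bin after it. Enriched bins held 63.2% of the window's reads in replicate 1 and 63.3% in replicate 2.

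The second run of the window, of 11 kb with 7 enriched bins at chr11:2162001-2173000, covered the IGF2 start used here. It stood at 2.31 and 2.68 (2.49 ± 0.266). Within 2 kb of the IGF2 start all 4 bins were enriched, at 2.84 and 3.30 (3.07 ± 0.323) against 1.13 and 1.22 in the 10 kb on either side. It was the highest of the 16 gene promoters in both libraries, each measured at a single start. Shifted by 2 kb to higher coordinates, past the end of the run, the same window would read 1.66. Over the body of IGF2 the level was 1.36 and 1.49. Inside it, the 10 kb at chr11:2150001-2160000 stood at 0.705 and 0.698 with no enriched bin. Any other IGF2 start was not measured, so the promoter value holds for the start used here alone. INS, the insulin gene beside it, stood lower at its promoter, at 0.693 and 0.513. The run ended abruptly, with the bin from 2172001 at 2.41 and 2.53 and the bin from 2173001 at 0.364 and 0.533.

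H19, at the other end of the window, had no enriched bin at its promoter. Its promoter bins stood at 0.398 (35 reads) and 0.333 (50 reads), under the 0.859 and 0.787 of the 10 kb on either side. The mean was 0.365, but 0.628 within 5 kb of the start and 0.625 with the position shifted by 2 kb to higher coordinates, and the RefSeq model of H19 begins farther upstream than the start used here. Its body stood at 0.636 and 0.426. The H19 control region, of 5 bins, stood at 0.836 and 0.735, and its surroundings at 0.766 and 0.726. It was the only one of the 7 elements counted as control regions that did not lie under its averaged surroundings. At the single starts used here, the IGF2 and H19 promoters did not overlap in their libraries. They differed by far more than the SD of either. Other IGF2 starts were not measured, and inside IGF2 the 10 kb at chr11:2150001-2160000 held no enriched bin. The difference is therefore one between these starts, and not one between a paternally and a maternally expressed gene.

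The KCNQ1/CDKN1C domain is the classical case of a noncoding RNA, KCNQ1OT1, transcribed from the paternal copy within the potassium channel gene KCNQ1 and silencing neighbours such as the growth inhibitor CDKN1C. Signal was thin and scattered over its 460 bins, of which 16 were enriched and 113 lay under 0.5-fold. The longest run was at the lower-coordinate end, just before the approximate start of KCNQ1: chr11:2460001-2465000, with 4 of 5 bins enriched, at 4.08 and 3.96 (4.02 ± 0.0866). It reached beyond the window, to 2458001. It held the window's highest bin, from 2464001, at 6.50 (143 reads) and 6.07 (228 reads). The second run of at least 3 enriched bins, chr11:2526001-2529000 within KCNQ1, stood at 3.42 and 4.36 (3.89 ± 0.662). The body of KCNQ1 as a whole stood at 0.808 and 0.830, and 12 of its 404 bins were enriched.

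The KCNQ1 promoter was the only other promoter at 2-fold or more in both libraries, at 2.33 and 2.25 within 2 kb of the start. That value came from 1 enriched bin of 4 at the edge of the promoter window: within 1 kb of the start the level was 0.749, and with the position shifted by 2 kb to higher coordinates it was 0.873. The signal thus lay before the start and not over it. Around the KCNQ1OT1 start the level fell away. KvDMR1, the control region that holds this start, had 4 reads in replicate 1 and 4 in replicate 2 over its 2 bins, at 0.0909 and 0.0533, where the 10 kb on either side stood at 0.743 and 0.859. Shifted by 2 kb to lower coordinates the same 2 bins would read 1.21, above the surroundings, and by 2 kb to higher coordinates 0.416, so the trough is narrow. It ran from the bin from 2719001 at 1.14 and 1.12 to those from 2720001 at 0.182 and 0.0799 and from 2721001, which held 0 reads and 1 read.

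The transcribed body of KCNQ1OT1 carried no broad block, at 0.741 and 0.796 with 2 of 91 bins enriched. Its promoter stood at 0.352 and 0.440 against 0.836 and 0.917 beside it. CDKN1C, a maternally expressed inhibitor of cyclin-dependent kinases, was low at its promoter, at 0.375 (33 reads) and 0.320 (48 reads). The 10 kb on either side averaged 0.40 and 0.492, but the higher-coordinate side alone stood lower than the promoter, at 0.282 and 0.237. Its body stood at 0.667 and 0.666. KCNQ1DN, a small imprinted transcript between KCNQ1 and CDKN1C, stood at 0.318 and 0.506 at its promoter. Neither the CDKN1C nor the KCNQ1DN promoter had an enriched bin.

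**Figure D2:**
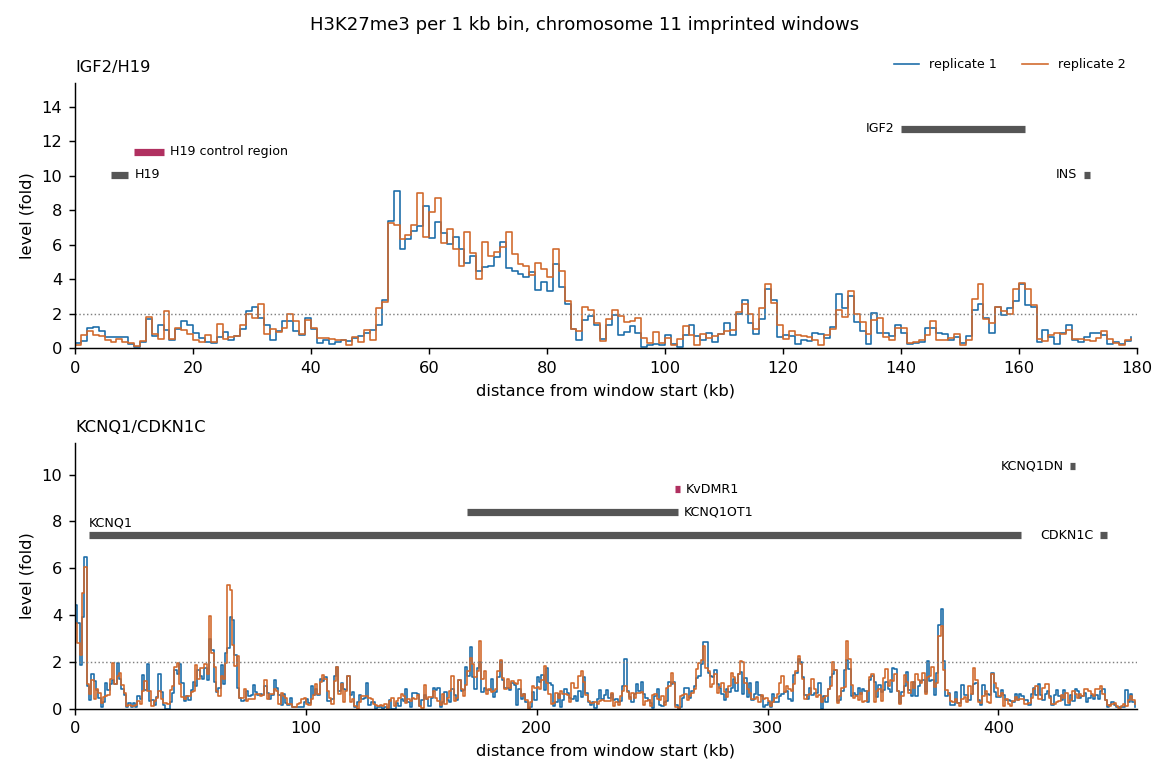
H3K27me3 level per 1 kb bin (fold over the library mean) against distance from the start of the window in kb, for IGF2/H19 (top) and KCNQ1/CDKN1C (bottom), replicate 1 in blue and replicate 2 in orange, with approximate gene positions in grey, control regions in red and 2-fold dotted. The block of 32 enriched bins lies between the H19 control region and IGF2 with smaller peaks after it, and the level drops to 0.0909 and 0.0533 at KvDMR1.

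The tracks of chromosome 11 show these shapes side by side: a dense block with smaller peaks after it in one window, and isolated peaks of a few kb in the other. Both libraries trace similar outlines. From replicate 1 alone the longest run is 32 kb, and from replicate 2 alone it is 37 kb, since 1 bin before the block and 2 after it also pass in that library.

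GNAS encodes the stimulatory G protein alpha subunit and has several first exons that are imprinted in different ways: NESP55 is transcribed from the maternal copy, XLas and the noncoding exon A/B from the paternal copy, and the Gs-alpha start from both copies in most tissues. The window is divided here at these starts. From the window start to NESP55 the level was 1.98 and 2.21 with 5 of 13 bins enriched, and between NESP55 and XLas it was 3.69 and 3.68 with 6 of 7 bins enriched. Between XLas and exon A/B it was 1.5 and 1.61 with 7 of 32 bins enriched. Over Gs-alpha it was 0.0659 (29 reads) and 0.0879 (66 reads) with none of 20 bins enriched. Marked and unmarked parts of the window therefore met at exon A/B, in both libraries.

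The longest 2 runs flanked the NESP55 start. The run at chr20:57419001-57425000, of 6 enriched bins, stood at 4.14 and 3.93 (4.04 ± 0.143) and held the window's highest bin, from 57422001, at 5.77 (127 reads) and 4.45 (167 reads). The run at chr20:57407001-57412000, of 5 enriched bins, stood at 3.15 and 3.82 (3.49 ± 0.467). Shorter runs followed at chr20:57432001-57435000, at 3.42 and 2.97, and at chr20:57454001-57456000, at 2.91 and 2.61.

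NESP55 and XLas lay in gaps between these runs, and exon A/B lay after the last of them. A further gap held no listed start: its low run at chr20:57448001-57451000 stood at 0.182 and 0.302. Gaps were thus not confined to the starts. The NESP55 promoter stood at 0.936 and 0.837 against 2.47 and 2.69 in the 10 kb on either side. The XLas promoter stood at 0.371 and 0.524 against 2.48 and 2.52. The values at NESP55 and XLas rest on positions that are right to within 2 kb: shifted to lower coordinates they were 1.35 and 1.53. Exon A/B stood at 0.303 and 0.258 against 0.916 and 0.863, an average of unlike sides. The lower-coordinate side stood at 1.732 and 1.673, and the higher-coordinate side at 0.09999 and 0.05328. Exon A/B thus lay between the levels of its sides and not in a gap. In the XLas gap the 5 bins from 57426001 to 57431000 held between 2 and 6 reads each in replicate 1 and between 4 and 9 in replicate 2, directly after a bin with 28 and 89 reads. From exon A/B on, the 26 kb at chr20:57463001-57489000 formed a single low run at 0.117 and 0.135. The 3 GNAS sequences printed above lie immediately before these starts.

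**Figure D3:**
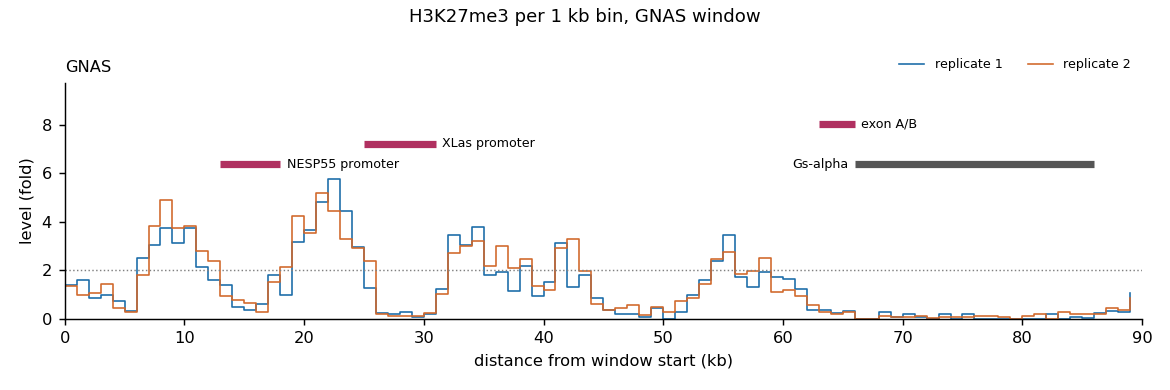
H3K27me3 level per 1 kb bin (fold over the library mean) against distance from the start of the GNAS window in kb, replicate 1 in blue and replicate 2 in orange, with the control regions in red, Gs-alpha in grey and 2-fold dotted. The starts NESP55, XLas and exon A/B are the elements drawn as control regions. Peaks up to 5.77 and 5.17 are separated by troughs at NESP55 and XLas and by a further trough without a listed start. The signal stays below 0.5-fold in both libraries over Gs-alpha.

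The track of the GNAS window shows both libraries rising and falling at the same bins around each start.

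The DLK1/MEG3 domain holds paternally expressed protein genes, DLK1 (a Notch-like membrane protein) and RTL1 (a retrotransposon-derived gene of the placenta), and maternally expressed noncoding RNAs, MEG3 followed by arrays of small nucleolar RNAs and microRNAs. Signal came as short runs throughout, 23 enriched bins in 360. The longest run, 8 kb with 6 enriched bins at chr14:101366001-101374000, stood at 2.55 and 2.62 (2.59 ± 0.0519) and lay between RTL1 and the SNORD113 and SNORD114 arrays. The next, 5 kb with 4 enriched bins at chr14:101185001-101190000 before DLK1, stood at 2.54 and 2.54 (2.54 ± 0.00391). The window's highest bin, from 101196001 within DLK1, stood at 3.36 (74 reads) and 3.94 (148 reads), a mean that 6.51% of autosomal bins reached. No bin of this window thus came near the top of the IGF2/H19 block.

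DLK1 was marked on both sides of its start and not at it. Its promoter bins stood at 0.511 and 0.619 against 1.57 and 1.79 in the 10 kb on either side, and within 1 kb of the start the level was 0.208. With the position shifted by 2 kb to lower or higher coordinates it was 1.21 or 1.79, so the dip is as narrow as the assumed position is uncertain. Its body stood at 1.67 and 1.86, the highest of the 22 gene and cluster bodies. RTL1 stood at 1.77 and 2.11 within 2 kb of its start, with 2 enriched bins, and at 0.568 and 0.806 over its body. The RefSeq model of RTL1 begins farther upstream than the start used here, so this value is one of the sequence beside the coding part and may not be that of a promoter.

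MEG3, a noncoding RNA with growth-restraining activity, lay in a trough at its start. Its promoter bins held 27 reads in replicate 1 and 9 in replicate 2, or 0.307 and 0.0599, against 0.775 and 0.777 beside them. The trough ran over 6 kb, chr14:101290001-101296000, at 0.311 and 0.138. The libraries differed more here than at most elements, and both lay under 0.5-fold. Over the body of MEG3 the level was 0.792 and 0.939, with 1 enriched bin, from 101313001, at 3.27 and 2.93. The intergenic control region of the domain, the IG-DMR, stood at 0.614 and 0.440 against 1.02 and 1.07 in its surroundings. Shifted by 2 kb to higher coordinates its mean of 0.527 became 1.19, above them, and to lower coordinates 0.3305.

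The 2 RNA arrays after MEG3 differed. The SNORD113 and SNORD114 arrays, of C/D box small nucleolar RNAs, stood at 0.281 and 0.422 over 69 bins with none enriched. The microRNA cluster from MIR379 to MIR656 stood at 1.16 and 1.21 over 46 bins with 1 enriched, above the 0.577 and 0.587 of the 10 kb on either side. The libraries of the arrays did not overlap. Copies within the SNORD arrays resemble each other, so the share of reads that could be placed there is uncertain.

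The SNRPN/UBE3A domain is the segment whose loss on the paternal or the maternal copy causes Prader-Willi or Angelman syndrome: SNURF-SNRPN and the SNORD arrays after it are expressed from the paternal copy, and UBE3A, a ubiquitin ligase, from the maternal copy in neurons and from both copies elsewhere. None of its 630 bins was enriched, and 546 lay under 0.5-fold in both libraries. The SNURF-SNRPN promoter stood at 0.136 (12 reads) and 0.147 (22 reads), its body at 0.199 and 0.133, and the control region at its start at 0.121 (8 reads) and 0.124 (14 reads). The upstream exons stood at 0.165 and 0.153 over 130 bins. The SNORD116 array, at 0.165 and 0.168, stood at the same level. The control region had 0.159 and 0.131 beside it, so the surroundings were nearly as low as the region itself.

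UBE3A had the lowest gene body of all but Gs-alpha. The 102 bins of its body stood at 0.0954 (214 reads) and 0.0914 (350 reads), and every one of them lay under 0.5-fold in both libraries. Its promoter, whose CG-rich sequence is printed above, held 8 reads in replicate 1 and 8 in replicate 2, or 0.0909 and 0.0533. The window was not uniform. Between the SNORD115 array and UBE3A, chr15:25524001-25582000, the level rose to 0.574 and 0.616, and the window's highest bin, from 25555001, stood at 1.23 (27 reads) and 2.27 (85 reads). That raised segment began in the last part of the SNORD115 array, where the bin from 25512001 stood at 1.59 and 1.28, and it ended before the end of UBE3A: the 118 kb at chr15:25569001-25687000 stood at 0.106 and 0.108. SNORD115 as a whole stood at 0.288 and 0.317, and its near-identical copies make the placing of reads there uncertain.

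**Figure D4:**
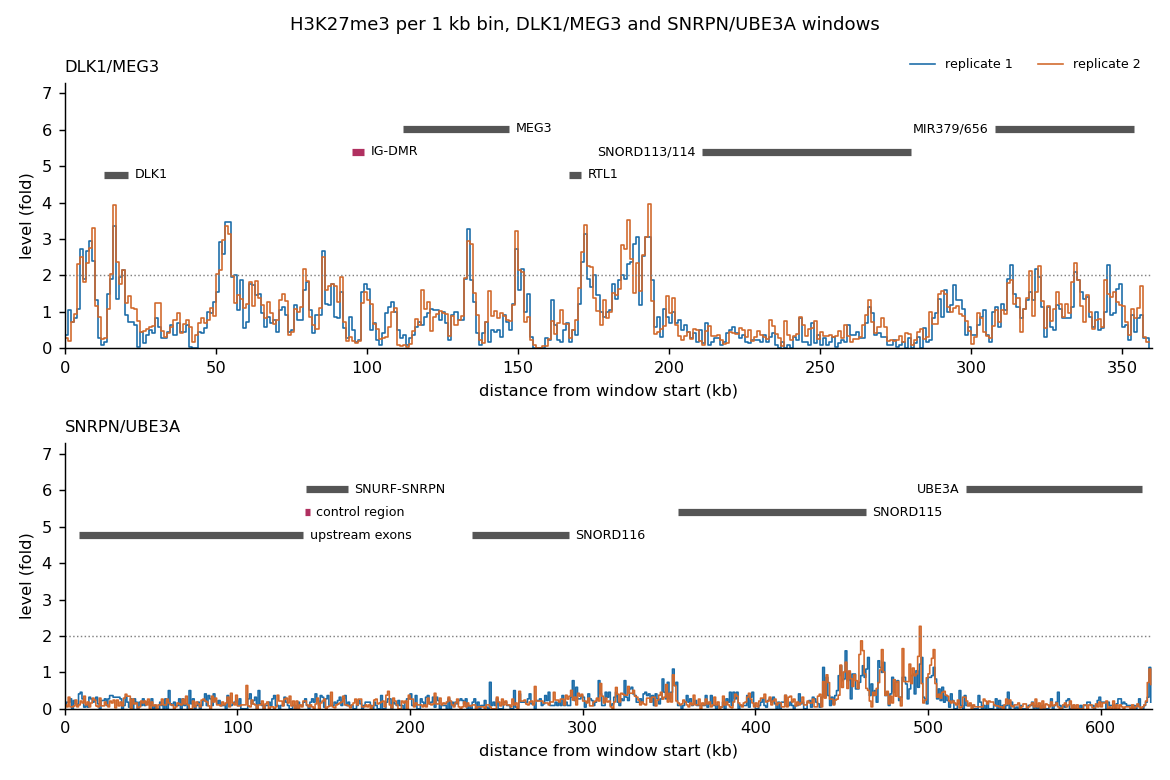
H3K27me3 level per 1 kb bin (fold over the library mean) against distance from the start of the window in kb, for DLK1/MEG3 (top) and SNRPN/UBE3A (bottom), replicate 1 in blue and replicate 2 in orange, with approximate gene positions in grey, control regions in red and 2-fold dotted. DLK1/MEG3 has peaks up to 3.45 and 3.97 with a trough at the MEG3 start, and SNRPN/UBE3A stays below 2-fold except for 1 bin of replicate 2 in the segment between SNORD115 and UBE3A.

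The tracks of chromosomes 14 and 15 are drawn to the same vertical scale, which makes the difference between a window of scattered peaks and one near the floor visible bin by bin.

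PEG10/SGCE, PEG3 and MEST complete the windows without an enriched bin. PEG10 is a retrotransposon-derived gene and SGCE the sarcoglycan epsilon gene, which share a bidirectional promoter and are expressed from the paternal copy. The PEG10 promoter held 0 reads in replicate 1, a count that allows a level of up to 0.0341 (3 reads), and 10 reads in replicate 2, a level of 0.0666, and had the lowest mean of the 16 promoters. In replicate 2 the UBE3A and MEG3 promoters stood lower. The SGCE promoter held 2 and 34 reads, or 0.0227 and 0.227, so the libraries differed at low counts. The bodies stood at 0.119 and 0.213 for PEG10 and at 0.238 and 0.227 for SGCE. The window's highest bin, from 94261001, reached 0.818 and 0.639.

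PEG3, a zinc finger protein gene expressed from the paternal copy, had 6 reads in replicate 1 and 29 in replicate 2 at its promoter, or 0.0682 and 0.193, and a body at 0.258 and 0.264. Its highest bin, from 57333001, stood at 0.954 and 0.213, with 21 and 8 reads, so only 1 library showed it. MEST, a paternally expressed hydrolase gene, had the highest promoter of the unmarked windows at the start used here, at 0.670 and 0.893. Its body was lower, at 0.407 and 0.277. Within the body, the 4 kb at chr7:130130001-130134000 stood at 0.193 and 0.147. The promoter table held 5 entries for MEST, and a single start was measured as a promoter. Which MEST start is the imprinted one was not checked. The ranking therefore holds for the start used here alone and may not be that of the imprinted promoter. The 6 kb before its approximate start, chr7:130120001-130126000, stood at 0.886 and 1.05 and held the window's highest bin, from 130123001, at 1.5 (33 reads) and 1.65 (62 reads). Both libraries showed this rise, short of the 2-fold limit.

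Counted over all elements, the promoters held both high and low values. Of single autosomal bins, 12.7% were enriched and 54.2% lay under 0.5-fold. Each promoter is a mean of 4 bins without a test, so these shares are only a rough background. The SGCE and PEG10 promoters share bins and are counted separately. Of the 16 gene promoters, 2 stood at 2-fold or more in both libraries, 9 stood under 0.5-fold in both, and the median was 0.381, near the autosomal median of 0.364 and 0.373. Of the 16, 11 lay below the 10 kb on either side in both libraries. The GNAS starts NESP55, XLas and exon A/B were counted with the control regions and not with the gene promoters. Of these 7 regions none reached 2-fold, 3 stood under 0.5-fold in both libraries and 6 lay below their surroundings in both. Their median was 0.448, with a range from 0.0721 at KvDMR1 to 0.886 at NESP55. The surroundings average both sides. Exon A/B and the SNRPN control region did not lie below each side taken alone in both libraries. The region that did not lie below its averaged surroundings was the H19 control region. Shifting every position by 2 kb to lower or higher coordinates moved 9 or 7 of 45 element values across one of these limits, and none from one side to the other. Of 22 gene and cluster bodies none reached 2-fold in both libraries, 11 stood under 0.5-fold in both, and the median was 0.429. The members were chosen by name, so these counts describe the listed elements and are not set against chance.

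**Figure D5:**
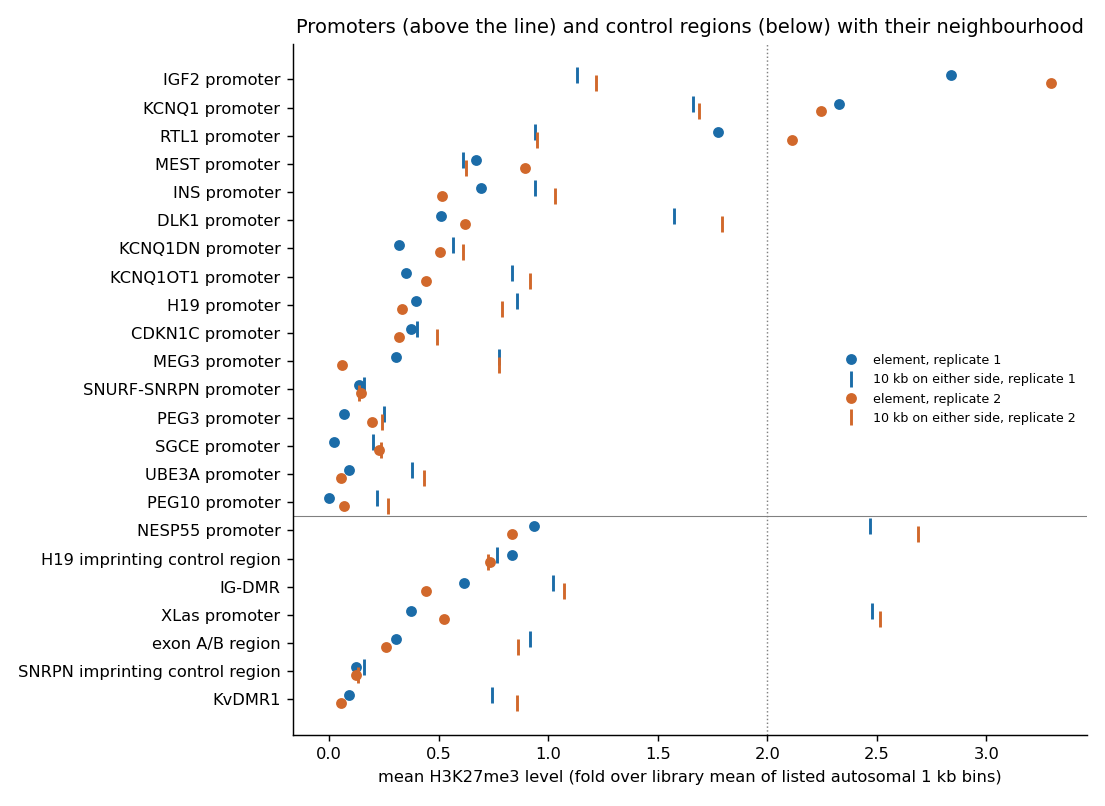
Mean H3K27me3 level (fold over the library mean) of the bins within 2 kb of each of 16 gene starts (above the line) and of 7 control regions (below it) as circles, with the 10 kb on either side as vertical ticks, replicate 1 in blue and replicate 2 in orange; the dotted line marks 2-fold. The GNAS starts NESP55, XLas and exon A/B are drawn among the control regions. IGF2 stands to the right of its surroundings at 2.84 and 3.30, and XLas and NESP55 stand furthest to the left of theirs.

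In the plot of promoters and control regions, XLas and NESP55 lay furthest below their surroundings, which were marked. A level cannot fall under 0, so low surroundings leave little room for such a distance. As a share of the surroundings, KvDMR1 stood lower, at 0.122 and 0.0620, than NESP55, at 0.379 and 0.311. In the windows without an enriched bin the surroundings were lower, from SNURF-SNRPN near the floor to MEST at 0.611 and 0.623. UBE3A lay below the average of its own, at 0.377 and 0.434, through 1 side only. Its higher-coordinate side stood at 0.664 and 0.818, while its lower-coordinate side, at 0.0909 and 0.0506, was as low as the promoter.

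No imprinted bin was called different between the 2 libraries once the dispersion between them was allowed for. A two-sided binomial test per bin on counts divided by the dispersion, Benjamini-Hochberg adjusted, called 0 imprinted bins different between the libraries, as it did over the autosomes (0.0%). The dispersion came from these same libraries, and bins of few reads could hardly pass after adjustment over all autosomal bins. The count of 0 is therefore no measure of agreement. At an unadjusted p under 0.05 the same test marked 36 imprinted bins, or 1.91%, against 2.12% of autosomal bins. With counts as deposited it called 40, or 2.12%, of which 20 were higher in each library, against 2.45% of autosomal bins. Across the 1883 listed imprinted bins, which share 2 libraries and are not independent, Pearson's r of log2(level + 0.1) was 0.822, against 0.869 over autosomal bins. By window it was 0.935 in GNAS, 0.907 in IGF2/H19, 0.508 in SNRPN/UBE3A, 0.297 in PEG10/SGCE and 0.219 in PEG3. On average a bin held 5.09 and 8.72 reads in SNRPN/UBE3A, 5.04 and 8.31 in PEG10/SGCE, and 4.78 and 9.26 in PEG3. In the low windows single bins thus agreed poorly between the libraries.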

How the data were processed

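Raw counts of reads in hg19 bins of 1000 bases were deposited by the authors; bins without a read are not listed and were set to 0. Alignment was to hg19 with BWA 0.7.12, per the submitters' processing notes. Which tool counted the reads, and how duplicates and poorly mapped reads were handled, is not given in the sources used here. Each count was divided by the library's mean over autosomal bins with a read (22.0 and 37.5 reads). Enrichment, runs (enriched bins joined across at most 2 others), flanks of 100 kb and element levels were computed as described in the text in Python 3.11.15 with scipy 1.17.1, pandas 2.3.3 and numpy 2.4.6 (plots with matplotlib 3.10.9), and the tests were tried on simulated data with known answers. The binomial test between libraries used counts divided by a dispersion of 2.42, estimated over all autosomal bins of these same libraries, so it absorbs real differences too. The 8 windows and the lists were chosen with earlier results of these data known. All 29 listed elements are reported; in each window the highest bin and the longest 2 runs of at least 3 enriched bins are named, and other bins and runs were picked after their values were seen. No hg19 annotation was used here: gene positions are approximate, in whole kb, from general knowledge. Lengths and spacings were checked against RefSeq GRCh38.p14, where 14 of 16 gene starts lay within 2 kb of the spacing used; the H19 and RTL1 models begin farther upstream. PEG3 and MEST could be checked by length alone. No input library was used here, so the part of copy number and mappability in any level was not tested. The alternatives tried were other fold minimums, bins, scalings, gaps, promoter widths and positions, and each replicate left out.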

Additional observations from a re-analysis of the deposited data

How the results depend on the processing

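The enriched share of all window bins was 5.32%, and it was 2.9% with a fold minimum of 3 and 9.0% without one, where 7.64% and 16.7% of autosomal bins passed. Under every setting run, 5 kb bins and both scalings included, it stood below the autosomal share. It was 6.16% to 7.26% with each replicate left out, and 3.31% without the IGF2/H19 window, a choice made after seeing the data. With a fold minimum of 3 the 28 runs became 13. The longest run, of 32 kb, was 30 to 37 kb over the alternatives. With counts as deposited, 40 bins differed between the libraries in place of 0.

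Scaled to the mean of their own chromosome, the windows stood at 1.58 (IGF2/H19), 0.690 (KCNQ1/CDKN1C), 0.211 (SNRPN/UBE3A), 0.930 (GNAS), 0.261 (PEG10/SGCE), 0.253 (PEG3) and 0.519 (MEST), which takes GNAS from above to below the mean it is scaled to. Their median bins, in the order of the plot of window means, stood at 1.02, 0.638, 0.171, 0.727, 0.838, 0.198, 0.198 and 0.300. With unlisted bins left out SNRPN/UBE3A stood at 0.265, GNAS at 1.39 and PEG10/SGCE at 0.250. A scale over bins listed in either library, added after seeing the data, gave 2.00 for IGF2/H19, 0.871 for KCNQ1/CDKN1C, 0.247 for SNRPN/UBE3A, 1.35 for GNAS and 0.240 for PEG10/SGCE. The scale used in the text raises replicate 2 against replicate 1 slightly, because more bins of replicate 1 held no read.

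Promoter widths of 1 kb and 5 kb moved 3 and 4 of 16 promoters across the 0.5-fold or 2-fold limit, and leaving out either replicate moved 3 of 45 element values. Shifted by 2 kb, KvDMR1 to lower and the IG-DMR to higher coordinates read 1.21 and 1.19, above the surroundings given in the text. Shifted the other way they read 0.416 and 0.3305, below those surroundings. Depth limits the low windows most: at 5.50 and 9.38 reads a single bin carries an error of 66.4% and 50.8%. No paired analysis was possible because the 2 samples form a single group.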
